A study of Mus musculus with 16 samples.

Results

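To describe the step between the MDP and the CDP stage of dendritic cell (DC) development when Ikaros is reduced, the transcriptomes of IkL/L CDPs were compared with those of IkL/L MDPs. MDPs are monocyte and dendritic cell progenitors and CDPs are common dendritic progenitors of the mouse bone marrow (BM), sorted as lineage- Sca1- CD135+ CD115+ cells with high CD117 (MDP) or low CD117 (CDP). IkL/L mice carry a hypomorphic allele of Ikzf1, the gene for the zinc finger transcription factor Ikaros, in both copies, and still make a reduced amount of functional protein in all their cells. The members were the arrays whose labels give this genotype, 8 of the 16 arrays of the series: 2 of IkL/L CDPs with the γ-secretase inhibitor Compound E (GSI), 2 of IkL/L CDPs with its vehicle DMSO, 2 of IkL/L MDPs with GSI and 2 of IkL/L MDPs with DMSO. The stage difference was the mean of the 4 CDP arrays minus the mean of the 4 MDP arrays. The 8 arrays of wild type (WT) CDPs and MDPs, treated in the same way, entered the same fit, where they add to the estimate of the spread, and show where the step differed between genotypes.

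All sorted progenitors were CD45.2+ and were cultured for 24 h together with CD45.1+ total BM cells of WT mice, in medium containing the cytokine Flt3L and either GSI at 5 µM or DMSO. The CD45.2+ cells were then sorted again and their RNA was amplified and hybridized. MDP and CDP thus name the cells put into culture, and what they had become after 24 h was not sorted for. The mice were young adults per the study's methods, and each condition had 2 mice. The labels do not say whether arrays with the same number, or the GSI and DMSO arrays of a stage, share a mouse, so the p values measure the spread between these arrays. Same-numbered arrays of IkL/L CDPs with DMSO and with GSI deviated from their group means together (r = 0.658). Those of IkL/L MDPs did not (r = -0.02). The CDP arrays may thus not be independent of each other, and the SE and p values may be too small.

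In the classical scheme, MDPs give rise to monocytes and to CDPs, and CDPs give rise to the precursors of conventional DCs (cDCs) and to plasmacytoid DCs (pDCs), under the control of the receptor tyrosine kinase Flt3. Early myeloid progenitors express the proteases of the azurophil granules, whereas differentiating DCs acquire MHC class II molecules, CD11c and, on maturation, the chemokine receptor CCR7 and costimulatory molecules. Ikaros binds DNA and recruits chromatin remodeling complexes, and is required for the development of pDCs and lymphocytes.

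The levels below are log2 RMA signals, which ran from 2.55 to 13.5 over the table, with array medians from 4.52 to 4.65. Over the genes tested, with 1 probe set each, the IkL/L CDP arrays correlated with each other at r of 0.987 to 0.996, the IkL/L MDP arrays at 0.993 to 0.996, and CDP with MDP arrays at 0.973 to 0.984. Ikzf1 itself had overlapping levels in IkL/L CDPs (8.58 to 8.94) and IkL/L MDPs (8.36 to 8.85), and whether its probe set reads the altered part of the allele was not tested. Array 2 of IkL/L MDPs with GSI stood apart in its sex-linked genes, since Eif2s3y, a Y-linked translation factor gene, was at 3.33 there and at 5.89 to 7.04 in the other 7 IkL/L arrays, and Kdm5d, a Y-linked histone demethylase gene, was at 4.42 there and at 5.04 to 6.01 in the others, while Xist, the X inactivation transcript, was at 7.42 to 8.75 in all 8. In WT cells Eif2s3y was at 3.06 to 3.52 in all 4 arrays numbered 2 and at 6.63 to 6.90 in all 4 numbered 1. The sex of the mice is not in the labels.

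Of the receptors that define the gates, Flt3 (CD135) was 3.74-fold higher in IkL/L CDPs. Its levels were 8.57 and 9.40 with GSI and 8.70 and 9.60 with DMSO in IkL/L CDPs, against 7.02 and 6.59 with GSI and 7.29 and 7.76 with DMSO in IkL/L MDPs, so the stages did not overlap (log2 difference 1.90 ± 0.32, SE of the fit, adjusted p = 0.00525). Kit (CD117), by whose protein the stages were separated, overlapped at 6.69 to 7.61 in IkL/L CDPs and 5.94 to 7.99 in IkL/L MDPs (adjusted p = 0.955). Csf1r (CD115) overlapped as well, at 10.4 to 10.9 in IkL/L CDPs and 10.2 to 10.4 in IkL/L MDPs (adjusted p = 0.363). The RNA taken after culture therefore separated the stages by Flt3 and did not separate them by Kit. Ly6a (Sca1) has no probe set of its own among those with 1 gene symbol.

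Of 19938 genes tested, 772 (3.87%) were higher and 573 (2.87%) were lower in IkL/L CDPs than in IkL/L MDPs at an adjusted p under 0.05 by limma, and the median difference of all genes was -0.02. All 4 CDP arrays lay above all 4 MDP arrays for 1407 genes (7.06%) and below them for 1859 genes (9.32%), and 725 of the genes called higher and 529 of those called lower were separated in this way. The largest called difference was a 48.5-fold rise, that of Apol7c, whose levels varied widely between the IkL/L MDP arrays. Single arrays moved these counts. Without array 2 of IkL/L MDPs with GSI, the array with low Eif2s3y, 501 genes were higher and 359 lower, of which 497 and 333 were among those above. The number higher was 468 without array 1 of IkL/L MDPs with GSI, 471 without array 1 of IkL/L MDPs with DMSO and 507 without array 2 of IkL/L CDPs with DMSO. The number lower was 242 to 379 when any 1 of the IkL/L arrays other than array 1 of CDPs with GSI was left out. Leaving out a WT array, which changes the estimate of the spread alone, gave 702 to 803 higher and 531 to 666 lower, and a fit of the IkL/L arrays alone gave 1002 and 1127. With the level of Eif2s3y as a covariate, chosen after seeing the data, they were 758 and 582. No gene was called in the opposite direction in any of these settings.

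**Figure D1:**
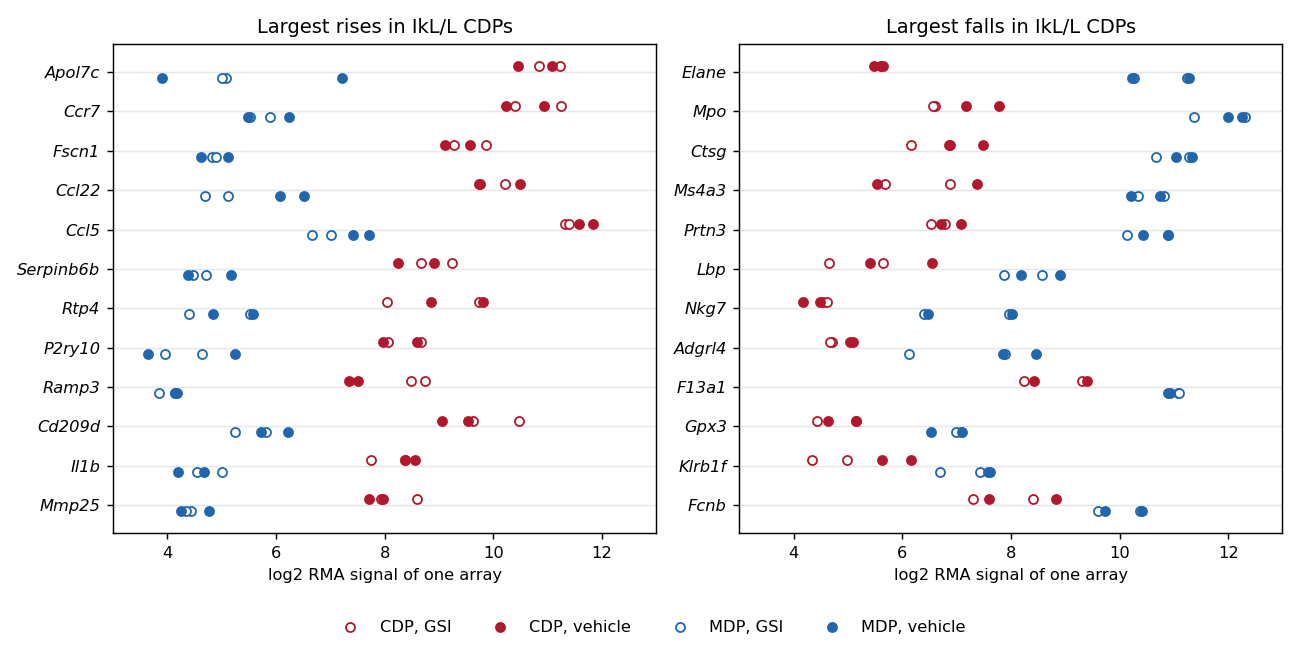
Log2 RMA signal (horizontal axis) of the 12 called genes that rose most and the 12 that fell most in IkL/L CDPs among those whose stages did not overlap, 1 point per array, with CDPs in red, MDPs in blue, GSI as open and vehicle as filled points. For Elane the CDP points sit at 5.48 to 5.65 and the MDP points at 10.2 to 11.3, and for Fscn1 the CDP points sit at 9.11 to 9.88 and the MDP points at 4.63 to 5.12.

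Genes of mature DCs, which migrate to lymph nodes and stimulate T cells, had the highest count of called rises among the lists. Theirs was also the longest list, and by share MHC class II genes had more, 9 of 9. The lists were written with earlier results of these data known, and the mature DC list holds several of the largest rises. Its count is therefore a description, to be set beside the 3.87% of all genes called higher. The counts of the other lists likewise stand beside 3.87% of all genes called higher and 2.87% called lower. Of 31 measured genes of this list, 29 were higher in IkL/L CDPs and 0 lower, with a median log2 difference of 1.80 against -0.02 over all genes, and 25 to 29 were called higher whichever array was left out. The mean level of the list was 7.30 to 7.96 in IkL/L CDP arrays and 5.31 to 5.61 in IkL/L MDP arrays. In such bulk samples, a change in the number of cells of a type and a change in RNA per cell cannot be told apart. The rise included molecules of migration, chemokines for T cells and costimulation.

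Ccr7, the receptor that guides DCs to lymph nodes, was at 10.4 and 11.2 with GSI and 10.2 and 10.9 with DMSO in IkL/L CDPs, against 5.52 and 5.90 with GSI and 5.48 and 6.23 with DMSO in IkL/L MDPs. Every CDP array was above every MDP array, and the difference was 4.92 ± 0.38 (30.3-fold, adjusted p = 5.33e-05). Fscn1, which bundles actin in the dendrites of mature DCs, was at 9.27 and 9.88 with GSI and 9.11 and 9.56 with DMSO in IkL/L CDPs, against 4.81 and 4.90 with GSI and 4.63 and 5.12 with DMSO in IkL/L MDPs (difference 4.59 ± 0.22, 24.1-fold, adjusted p = 3.44e-06). For both genes the arrays with GSI and with DMSO of a stage overlapped, and the stages did not.

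Chemokines rose together with these. Ccl22, which attracts T cells through CCR4, was at 9.74 and 10.2 with GSI and 9.77 and 10.5 with DMSO in IkL/L CDPs, against 4.70 and 5.12 with GSI and 6.07 and 6.52 with DMSO in IkL/L MDPs (difference 4.45 ± 0.21, 21.9-fold, adjusted p = 3.29e-06). Ccl5, a chemokine gene, was at 11.3 to 11.8 in IkL/L CDPs and 6.67 to 7.71 in IkL/L MDPs (difference 4.33 ± 0.27, adjusted p = 1.26e-05). Ccl17, a further CCR4 ligand, was not called, with levels of 3.94 to 4.85 in IkL/L CDPs and 3.47 to 3.87 in IkL/L MDPs (difference 0.55 ± 0.16, adjusted p = 0.0769). Its CDP arrays lay above its MDP arrays by less than those of the chemokines that were called.

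Costimulatory and regulatory surface molecules were higher too. Cd83, which stabilizes MHC class II at the surface, was at 8.16 to 9.51 in IkL/L CDPs and 5.24 to 5.67 in IkL/L MDPs (difference 3.44 ± 0.23). Cd40, the receptor for T cell help, was at 8.08 to 8.51 in IkL/L CDPs and 6.04 to 7.0 in IkL/L MDPs (1.88 ± 0.18), and Cd80, a ligand of CD28, was at 6.25 to 6.95 in IkL/L CDPs and 5.21 to 5.72 in IkL/L MDPs (1.15 ± 0.14). Cd86, its companion ligand, showed a difference of 1.18 ± 0.30, close to the threshold (adjusted p = 0.0459). Il12b, which encodes a subunit of IL-12, was called with a small difference of 0.42 ± 0.10, with 4.36 to 4.93 in IkL/L CDPs and 4.05 to 4.22 in IkL/L MDPs.

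Other genes with the largest rises were less bound to 1 role, although Apol7c and Serpinb6b among them were already counted in the mature DC list. Apol7c, an apolipoprotein L gene, had the largest difference of all, 5.60 ± 0.68 (48.5-fold, adjusted p = 0.000818), with 10.5 to 11.2 in IkL/L CDPs and 3.89 to 7.22 in IkL/L MDPs, the highest MDP value being that of array 2 with DMSO. The lowest MDP value lay below the array medians, and signal relative to background was not analysed, so this fold is uncertain. Serpinb6b, a serine protease inhibitor gene, was at 8.26 to 9.24 in IkL/L CDPs and 4.38 to 5.17 in IkL/L MDPs (4.09 ± 0.24). Il1b, the gene for the cytokine IL-1β, was at 7.74 to 8.55 in IkL/L CDPs and 4.20 to 5.00 in IkL/L MDPs (3.66 ± 0.25). Ramp3, which modifies the ligand specificity of calcitonin family receptors, Mmp25, a membrane-bound metalloproteinase, P2ry10, a G protein-coupled receptor, and Rtp4, an interferon-induced chaperone of receptors, rose by 3.94, 3.60, 3.96 and 4.03. The stages did not overlap for any of these genes. Apol7c, Serpinb6b, Cd209d, Klrb1f, Clec4a4, Ly6g, Stfa2 and the Ifit and H2 genes have close paralogs, and whether their probe sets separate them was not tested.

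Promoters of the named genes with the largest rises and falls were searched for TGGGAA, the core of the site that Ikaros binds, on both strands of the 300 bases from 250 before to 50 after the start given by RefSeq (GRCm38.p6). It was present in 9 of 20 such genes with an entry, against 28.3% of 27025 symbols, and in 7 of 22 mature DC genes with an entry. Shown are the stretches around the first match, capitals marking it, for 3 genes that rose and 1 that fell, of which all 4 matches lie on the opposite strand and so read TTCCCA. They are Serpinb6b at chr13:32965011-32965082 (plus strand), Cd209d at chr8:3878632-3878717 (minus strand), Il1b at chr2:129371227-129371312 (minus strand) and Ms4a3 at chr19:11640983-11641068 (minus strand), with the match beginning 224, 178, 133 and 177 bases before the start. A match is a description of the letters and was not tested as a binding site.
Serpinb6b: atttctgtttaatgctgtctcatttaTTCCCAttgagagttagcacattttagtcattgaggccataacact
Cd209d: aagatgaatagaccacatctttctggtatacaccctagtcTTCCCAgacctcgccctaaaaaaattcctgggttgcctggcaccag
Il1b: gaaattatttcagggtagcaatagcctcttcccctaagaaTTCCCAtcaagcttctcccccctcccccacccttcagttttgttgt
Ms4a3: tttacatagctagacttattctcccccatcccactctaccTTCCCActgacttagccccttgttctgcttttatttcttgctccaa

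MHC class II genes, whose products present peptides to CD4+ T cells, were all higher in IkL/L CDPs. Of 9 measured genes of this list 9 were called higher, with a median difference of 1.66, but this count is sensitive to the arrays, as it was 5 without array 2 of IkL/L CDPs with DMSO, 5 without array 1 of IkL/L MDPs with DMSO, 5 without array 1 of IkL/L MDPs with GSI and 6 without array 2 of IkL/L MDPs with GSI. The mean level of the list was 9.32 to 9.97 in IkL/L CDP arrays and 7.83 to 8.29 in IkL/L MDP arrays.

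Ciita, the coactivator on which MHC class II transcription depends, was at 7.87 and 8.32 with GSI and 7.73 and 8.32 with DMSO in IkL/L CDPs, against 5.88 and 5.75 with GSI and 5.46 and 6.05 with DMSO in IkL/L MDPs (difference 2.27 ± 0.24, 4.84-fold, adjusted p = 0.000301). H2-Ab1, the β chain of I-A, was at 12.2 and 12.2 with GSI and 12.1 and 12.3 with DMSO in IkL/L CDPs, against 10.2 and 10.6 with GSI and 10.2 and 10.9 with DMSO in IkL/L MDPs (1.69 ± 0.26, 3.23-fold, adjusted p = 0.00361). H2-Eb1, the β chain of I-E, differed by 2.67 ± 0.30, and Cd74, the invariant chain that accompanies class II molecules, by 1.78 ± 0.30. The stages did not overlap for these 4 genes. H2-Eb2, a further β chain gene, was at 4.50 to 6.10 in IkL/L CDPs and 3.69 to 3.86 in IkL/L MDPs (1.61 ± 0.21). H2-DMa, which edits the bound peptides, differed least among the 9, by 0.78 ± 0.16.

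Promoters of MHC class II genes share a Y box, and CTGATTGG was found on either strand in 4 of the 6 list members with an entry, H2-Eb1, H2-Eb2, H2-Aa and H2-Oa, against 4.7% of all symbols. This motif, like the others below, was chosen after the values were seen. The stretches of H2-Eb1 at chr17:34305765-34305852 (plus strand), H2-Eb2 at chr17:34325532-34325619 (plus strand) and H2-Aa at chr17:34287827-34287914 (minus strand) are shown because these letters, in capitals, stand before the start of 3 genes that rose by 2.67, 1.61 and 1.66. They lie 62, 103 and 51 bases before the start (GRCm38.p6, RefSeq).
H2-Eb1: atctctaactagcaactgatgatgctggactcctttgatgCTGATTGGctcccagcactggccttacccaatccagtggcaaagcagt
H2-Eb2: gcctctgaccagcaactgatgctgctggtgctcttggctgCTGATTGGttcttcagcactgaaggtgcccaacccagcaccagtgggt
H2-Aa: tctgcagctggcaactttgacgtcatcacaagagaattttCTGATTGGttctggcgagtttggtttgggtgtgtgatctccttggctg
H2-Aa, the α chain of I-A, was at 12.4 to 12.5 in IkL/L CDPs and 10.5 to 11.1 in IkL/L MDPs, with a difference of 1.66 ± 0.33 that was not called without array 2 of IkL/L CDPs with DMSO or without array 1 of IkL/L MDPs with DMSO or GSI (adjusted p of up to 0.0624).

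Interferon response genes, which pDCs and other cells switch on through type I interferon receptors, were higher in 16 of 18 and lower in 0, with a median of 1.43. The count was 14 to 16 whichever IkL/L or WT array was left out. Oasl2, an oligoadenylate synthetase-like gene, was at 8.98 and 7.87 with GSI and 8.97 and 8.55 with DMSO in IkL/L CDPs, against 6.14 and 6.28 with GSI and 5.80 and 6.37 with DMSO in IkL/L MDPs (2.45 ± 0.22, 5.45-fold, adjusted p = 0.000129). Irf7, the factor that amplifies interferon production, was at 8.95 and 7.64 with GSI and 8.89 and 7.62 with DMSO in IkL/L CDPs, against 5.66 and 5.58 with GSI and 5.60 and 6.29 with DMSO in IkL/L MDPs (2.50 ± 0.33, adjusted p = 0.00141). For Irf7 the CDP arrays numbered 1 lay above those numbered 2 under both treatments. Ddx58, which encodes the RNA sensor RIG-I, differed by 2.21 ± 0.22, and Oas3, a further oligoadenylate synthetase, by 1.74 ± 0.24.

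The spread between the CDP arrays was wide for this group. The mean level of the list was 6.09 to 7.42 in IkL/L CDP arrays and 5.25 to 5.48 in IkL/L MDP arrays. Ifit3, an interferon-induced gene with tetratricopeptide repeats, was at 8.20 and 5.64 with GSI and 9.08 and 7.72 with DMSO in IkL/L CDPs, against 4.76 and 4.77 with GSI and 5.32 and 5.07 with DMSO in IkL/L MDPs (2.68 ± 0.46). The lowest CDP value, in array 2 with GSI, was still above every MDP value. Mmp9 and Ly6g, both late neutrophil genes, and Msr1, a scavenger receptor gene of macrophages, were likewise higher in the CDP arrays numbered 1 than in those numbered 2 (Mmp9 at 7.83 and 7.97 in the arrays numbered 1 and at 6.49 and 5.82 in those numbered 2), and the part of other cells in the interferon values was not tested.

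The letters GAAANNGAA, resembling the interferon-stimulated response element, were found on either strand in the promoters of 9 of the 14 interferon response genes with an entry, against 9.76% of all symbols. Shown are the stretches of Oas3 at chr5:120777686-120777774 (minus strand), of Ifit1 at chr19:34640740-34640828 (plus strand) and of Stat2 at chr10:128270248-128270325 (plus strand), with the first match 75, 109 and 221 bases before the start. Capitals mark the 2 matches in the stretch of Oas3, the 3 in that of Ifit1 and the 1 in that of Stat2, of which some overlap. In Ifit1 and Stat2 they lie on the opposite strand and read as the reverse complement.
Oas3: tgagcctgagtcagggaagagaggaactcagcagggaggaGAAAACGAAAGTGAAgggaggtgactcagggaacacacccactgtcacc
Ifit1: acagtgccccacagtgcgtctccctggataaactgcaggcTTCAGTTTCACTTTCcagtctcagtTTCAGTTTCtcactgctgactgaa
Stat2: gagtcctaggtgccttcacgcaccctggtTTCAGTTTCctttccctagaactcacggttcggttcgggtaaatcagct
Ifit1 was at 4.97 to 7.42 in IkL/L CDPs and 3.96 to 4.10 in IkL/L MDPs (2.56 ± 0.42), and Stat2, a component of the factor that binds such elements, at 7.27 to 7.84 in IkL/L CDPs and 6.24 to 6.75 in IkL/L MDPs (1.10 ± 0.16).

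The NF-κB pathway links receptors such as CD40 to the transcription factors RelA, c-Rel and RelB. Of 16 measured genes, 12 were higher and 0 lower, with a median of 0.90, and 8 were higher without array 1 of IkL/L MDPs with GSI. Traf1, Cd40 and Relb of this list were already counted among the mature DC genes. Traf1, an adaptor of TNF receptors, was at 6.56 and 7.10 with GSI and 6.45 and 7.11 with DMSO in IkL/L CDPs, against 3.46 and 3.68 with GSI and 3.63 and 3.60 with DMSO in IkL/L MDPs (3.21 ± 0.17, adjusted p = 4.24e-06). Its MDP levels lay below the array medians, and signal relative to background was not analysed, so no fold is given. Map3k14, the kinase NIK that starts the noncanonical branch, was at 5.92 to 6.67 in IkL/L CDPs and 4.97 to 5.26 in IkL/L MDPs (1.19 ± 0.12). Letters resembling a κB site, GGANNTTCC, were in the promoters of 4 of 13 such genes and 0 of 22 mature DC genes with an entry, against 4.86% of all symbols.

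A list of 7 TGFβ target genes was taken from the study, which names them as genes that Ikaros binds in other precursor cells, and it was chosen here with earlier results of these data known. In this list 6 of 7 were higher and 0 lower in IkL/L CDPs, with a median of 1.15. Relb, Nfkbie, Nfkb2 and Rel were already counted in the NF-κB list, and Relb also in that of mature DC genes. The lists are therefore not separate observations. Relb, the partner of NF-κB p52 required for cDCs, was at 6.77 and 7.10 with GSI and 6.95 and 7.34 with DMSO in IkL/L CDPs, against 5.01 and 5.24 with GSI and 5.30 and 5.39 with DMSO in IkL/L MDPs (1.80 ± 0.15, 3.49-fold, adjusted p = 7.86e-05). Nfkbie, an inhibitor of NF-κB, Nfkb2, the precursor of p52, Rel, the gene for c-Rel, and Irf1, an interferon-induced factor, differed by 1.31 ± 0.17, 1.15 ± 0.18, 0.94 ± 0.16 and 1.03 ± 0.10, with no overlap between the stages. Irf4, a factor of cDC2s, differed by 1.80 ± 0.42 (adjusted p = 0.0304), a call that was lost when any 1 of 5 IkL/L arrays was left out (adjusted p of up to 0.121). Axl, a receptor tyrosine kinase, was not called, at 5.87 to 8.43 in IkL/L CDPs and 6.48 to 7.45 in IkL/L MDPs (0.37 ± 0.31, adjusted p = 0.663). Eng, the TGFβ coreceptor endoglin, overlapped between the stages as well (0.11 ± 0.19).

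Receptors and SMADs of the TGFβ pathway had 0 of 16 members higher and 2 lower, with a median of 0.01. Over all genes 3.87% were called higher and 2.87% lower. The 2 lower members were Tgfbr3, the coreceptor betaglycan, at 4.84 to 5.16 in IkL/L CDPs and 5.23 to 5.95 in IkL/L MDPs (-0.58 ± 0.14, adjusted p = 0.0311), and Smad5 (-0.29 ± 0.06, adjusted p = 0.0218). The count was 0 when array 2 of IkL/L CDPs with DMSO, array 1 of IkL/L CDPs with GSI, or array 1 of IkL/L MDPs with either treatment was left out, and 1 without any 1 of 3 other IkL/L arrays.

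**Figure D2:**
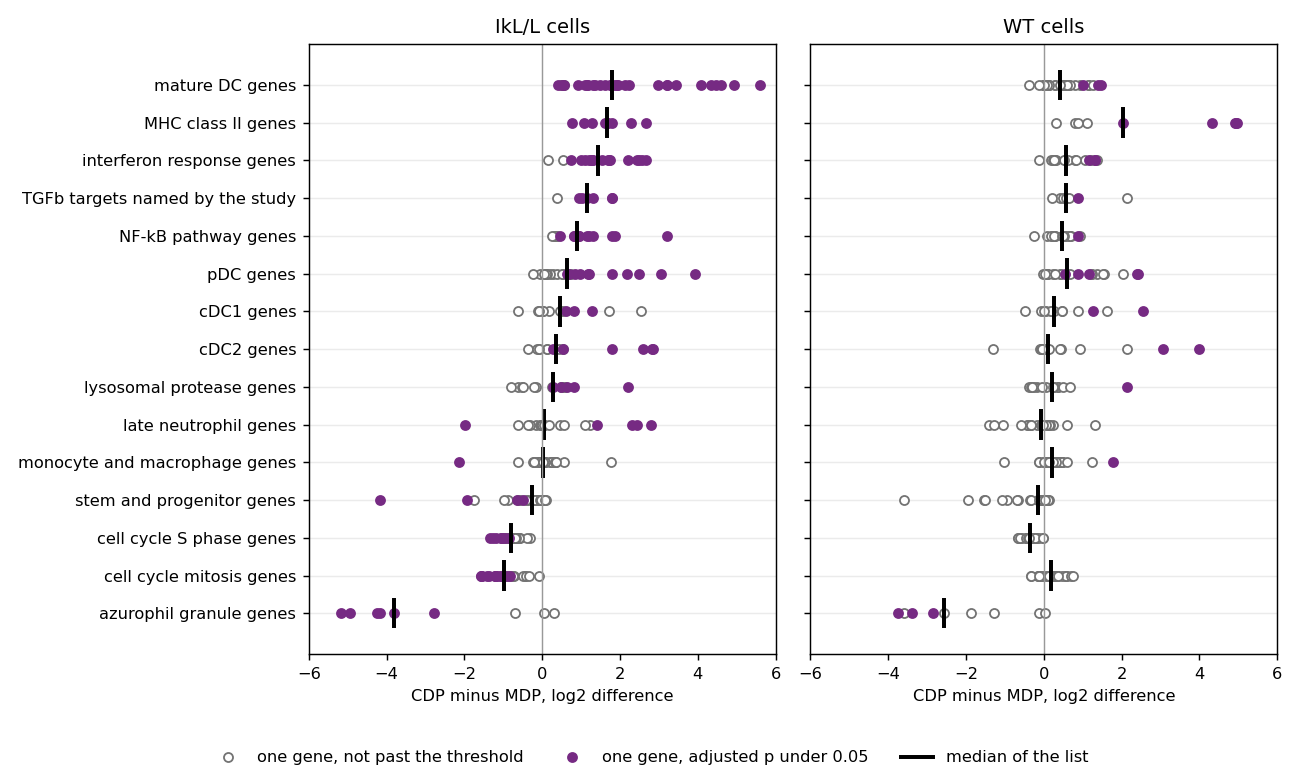
Log2 stage difference (CDP minus MDP, horizontal axis) of each measured member of 15 gene lists, in IkL/L cells on the left and WT cells on the right, with called genes filled and a black bar at the list median. In IkL/L cells the medians are 1.80 for mature DC genes, -3.81 for azurophil granule genes and -0.99 for mitosis genes, and in WT cells 0.40, -2.57 and 0.18.

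Lineage genes of DCs were higher as well, although for fewer members of each list. Among pDC genes 11 of 23 were higher and 0 lower, with a median of 0.63, against 3.87% of all genes called higher. Cd209d, a C-type lectin gene of the SIGN family, was at 9.63 and 10.5 with GSI and 9.06 and 9.53 with DMSO in IkL/L CDPs, against 5.25 and 5.82 with GSI and 5.73 and 6.23 with DMSO in IkL/L MDPs (3.92 ± 0.24, 15.1-fold, adjusted p = 9.88e-06). Spib, an Ets factor of pDCs and B cells, was at 6.81 and 7.87 with GSI and 7.53 and 8.49 with DMSO in IkL/L CDPs, against 4.43 and 4.38 with GSI and 4.56 and 5.12 with DMSO in IkL/L MDPs (3.05 ± 0.37, adjusted p = 0.000861). Both were separated between the stages in every array. Siglech, a surface lectin of pDCs, differed by 1.79 ± 0.21, Blnk, an adaptor of B cell receptor signaling, by 0.96 ± 0.10, and Tcf4, the factor that specifies pDCs, by 1.18 ± 0.22. Irf7 of this list was already counted among the interferon response genes. Spib, Tcf4, Ccr9 and Tlr9 of this list are counted again in lists below. Ptcra, the pre-T cell receptor α gene that pDCs transcribe, overlapped at 4.08 to 4.37 in IkL/L CDPs and 4.21 to 4.38 in IkL/L MDPs.

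Among cDC2 genes 6 of 14 were higher and 0 lower, with a median of 0.35, against 3.87% of all genes called higher. The count was 3 without either array of IkL/L MDPs with GSI. Of the 14, 4 had a lower mean in IkL/L CDPs, with differences down to -0.36. Cd209a, the lectin DC-SIGN of mice, was at 9.71 to 10.8 in IkL/L CDPs and 7.09 to 8.07 in IkL/L MDPs (2.83 ± 0.28, adjusted p = 0.00021), and Itgax, which encodes CD11c, at 8.08 to 9.17 in IkL/L CDPs and 5.23 to 6.39 in IkL/L MDPs (2.83 ± 0.31, adjusted p = 0.000403). Clec4a4, the inhibitory lectin DCIR2, was at 5.68 to 6.82 in IkL/L CDPs and 3.45 to 4.16 in IkL/L MDPs (2.59 ± 0.21). These 3 genes, which mark cDC2s or DCs in general, were well separated between the stages. Ltb, the lymphotoxin β gene, differed by 0.53 ± 0.12, a call lost when any 1 of 5 arrays was left out (adjusted p of up to 0.0759).

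Among cDC1 genes 3 of 13 were higher and 0 lower, with a median of 0.44, against 3.87% of all genes called higher. The count ranged from 2 to 5 when 1 array was left out, with 5 without either array of WT CDPs with DMSO. The median was 0.13 without array 1 of IkL/L MDPs with DMSO. Cadm1, an adhesion molecule of cDC1s, was at 6.57 to 7.65 in IkL/L CDPs and 5.45 to 6.09 in IkL/L MDPs (1.29 ± 0.16). Cd8a and the cDC1 factor Batf3 differed by 0.80 ± 0.13 and 0.61 ± 0.15, the call of Batf3 being lost when any 1 of 7 arrays was left out (adjusted p of up to 0.144). The defining receptors overlapped between the stages, Xcr1 with 3.63 to 3.75 in IkL/L CDPs and 3.49 to 3.83 in IkL/L MDPs, and Clec9a with 3.85 to 5.48 in IkL/L CDPs and 3.48 to 5.25 in IkL/L MDPs. Irf8, the factor that both MDPs and cDC1s require, was not called (-0.62 ± 0.17, adjusted p = 0.0605).

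Of 18 transcription factors of the DC lineage, 6 were higher and 0 lower, with a median of 0.40, against 3.87% of all genes called higher. The count was 4 without array 2 of IkL/L CDPs with DMSO. Besides Relb, Spib and Tcf4, Zbtb46, whose expression marks the cDC lineage, was higher, at 5.16 to 5.95 in IkL/L CDPs and 4.47 to 4.54 in IkL/L MDPs (1.05 ± 0.19, adjusted p = 0.0087). Id2, which opposes the pDC program, was not called, at 9.34 to 9.89 in IkL/L CDPs and 8.20 to 9.09 in IkL/L MDPs (0.95 ± 0.26, adjusted p = 0.0592). The 5 Ikaros family genes had 0 called in either direction, with Ikzf5 at -0.15 ± 0.10 and Ikzf2 at -0.35 ± 0.25.

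The largest falls were those of azurophil granule genes, which early granulocyte and monocyte progenitors transcribe. Of 9 measured genes 6 were lower in IkL/L CDPs and 0 higher, with a median of -3.81, and 5 to 7 were lower whichever array was left out. The mean level of the list was 6.62 to 7.08 in IkL/L CDP arrays and 9.21 to 10.0 in IkL/L MDP arrays. Elane, the neutrophil elastase gene, was at 5.62 and 5.62 with GSI and 5.65 and 5.48 with DMSO in IkL/L CDPs, against 11.2 and 10.3 with GSI and 11.3 and 10.2 with DMSO in IkL/L MDPs (-5.16 ± 0.62, 35.9-fold lower, adjusted p = 0.000732). Mpo, the myeloperoxidase gene, was at 6.60 and 6.56 with GSI and 7.78 and 7.18 with DMSO in IkL/L CDPs, against 12.3 and 11.4 with GSI and 12.3 and 12 with DMSO in IkL/L MDPs (-4.95 ± 0.64, 31.0-fold lower, adjusted p = 0.00121). Every CDP array lay below every MDP array for both genes.

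Further proteases were lower as well. Ctsg, cathepsin G, was at 6.16 to 7.48 in IkL/L CDPs and 10.7 to 11.3 in IkL/L MDPs and fell by 4.24 ± 0.55. Prtn3, proteinase 3, was at 6.53 to 7.08 in IkL/L CDPs and 10.1 to 10.9 in IkL/L MDPs and fell by 3.81 ± 0.55. Nkg7, a granule membrane gene, fell by 2.77 ± 0.53 (adjusted p = 0.0105), although not at the threshold without array 1 of IkL/L MDPs with GSI (0.0504). Ms4a3, a marker of granulocyte and monocyte progenitors, was at 6.88 and 5.68 with GSI and 7.37 and 5.53 with DMSO in IkL/L CDPs, against 10.8 and 10.3 with GSI and 10.7 and 10.2 with DMSO in IkL/L MDPs (-4.16 ± 0.76, 17.9-fold lower, adjusted p = 0.00881). Its CDP arrays numbered 1 were above those numbered 2.

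Further genes with the largest falls included Lbp, the lipopolysaccharide binding protein (-2.82 ± 0.45), Gpx3, a secreted glutathione peroxidase (-2.08 ± 0.33), Klrb1f, a C-type lectin receptor gene (-2.05 ± 0.32), F13a1, coagulation factor XIII A of monocytes (-2.15 ± 0.41), and Fcnb, ficolin B of granulocyte progenitors (-2.0 ± 0.35). Adgrl4, an adhesion receptor gene, fell by 2.69 ± 0.56 (adjusted p = 0.0165), a call lost when any 1 of 4 IkL/L arrays was left out (adjusted p of up to 0.0736). Among stem and progenitor genes 4 of 23 were lower and 0 higher, with a median of -0.26, against 2.87% of all genes called lower. The count was 1 without array 1 of IkL/L MDPs with GSI. It was 2 without either array numbered 2 of IkL/L CDPs or either array of IkL/L MDPs with DMSO. The 4 were Ms4a3, Myb, the factor that maintains progenitors, Cd93 and Egfl7. Myb was at 6.58 to 7.21 in IkL/L CDPs and 7.68 to 9.31 in IkL/L MDPs (-1.94 ± 0.43, adjusted p = 0.023). The call of Myb was lost when any 1 of 7 arrays was left out (adjusted p of up to 0.0994), that of Cd93 with 8 (0.134) and that of Egfl7 with 1 (0.0546). Cd34 was not called (-0.89 ± 0.24, adjusted p = 0.0585).

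Cell cycle genes were lower in IkL/L CDPs. Of 25 measured mitosis genes 16 were lower and 0 higher, with a median of -0.99, all 25 means were lower, and 18 had every CDP array below every MDP array, against the background of 9.32%. The count was 13 to 18 whichever array was left out. The mean level of the list was 7.03 to 7.52 in IkL/L CDP arrays and 8.01 to 8.56 in IkL/L MDP arrays. Ccnb2, cyclin B2, was at 8.32 and 8.50 with GSI and 8.23 and 8.33 with DMSO in IkL/L CDPs, against 10.0 and 10.2 with GSI and 9.54 and 9.82 with DMSO in IkL/L MDPs (-1.55 ± 0.13, 2.93-fold lower, adjusted p = 8.44e-05). Bub1b, the spindle checkpoint kinase BubR1, was at 7.31 and 7.45 with GSI and 7.50 and 7.69 with DMSO in IkL/L CDPs, against 8.77 and 8.56 with GSI and 8.53 and 8.83 with DMSO in IkL/L MDPs (-1.19 ± 0.10, adjusted p = 8.03e-05). The arrays of a stage lay within 1 log2 unit of each other for both genes. Cdkn3, a phosphatase of cyclin-dependent kinases, and Kif20a, a kinesin of the central spindle, fell by 1.57 ± 0.15 and 1.19 ± 0.13, whereas Mki67, the Ki-67 antigen, overlapped (-0.09 ± 0.49, adjusted p = 0.97).

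Promoters of mitosis genes often carry a cell cycle genes homology region, with the core TTTGAA. This core was found on either strand in 16 of the 21 mitosis genes with an entry and in 2 of the 20 S phase genes with an entry, against 20.2% of all symbols. The stretches around it are shown for 3 mitosis genes that fell, Ccnb2 at chr9:70421676-70421761 (minus strand), Cdkn3 at chr14:46760390-46760475 (plus strand) and Cdc20 at chr4:118437344-118437401 (minus strand), with the core in capitals 167, 111 and 18 bases before the start. In Cdkn3 it lies on the opposite strand and reads TTCAAA.
Ccnb2: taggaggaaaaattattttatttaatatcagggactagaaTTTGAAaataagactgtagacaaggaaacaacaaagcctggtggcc
Cdkn3: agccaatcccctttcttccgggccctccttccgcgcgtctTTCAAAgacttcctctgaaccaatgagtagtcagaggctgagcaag
Cdc20: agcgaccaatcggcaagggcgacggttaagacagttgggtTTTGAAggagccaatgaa
Cdc20, the activator of the anaphase-promoting complex, was at 6.40 to 6.85 in IkL/L CDPs and 7.68 to 8.19 in IkL/L MDPs (-1.41 ± 0.17, adjusted p = 0.00071).

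S phase genes shifted in the same direction with fewer calls. Of 25 measured genes 7 were lower and 0 higher, with a median of -0.80, and 23 had all CDP arrays below all MDP arrays. This count was 2 without array 1 of IkL/L CDPs with DMSO, array 2 of IkL/L MDPs with DMSO or array 1 of IkL/L MDPs with GSI, 3 without array 2 of IkL/L MDPs with GSI or array 1 of IkL/L CDPs with GSI, 4 without array 1 of IkL/L MDPs with DMSO, and 12 without either array of WT CDPs with GSI. Ccne2, cyclin E2, was at 7.33 to 7.57 in IkL/L CDPs and 8.58 to 8.86 in IkL/L MDPs (-1.28 ± 0.21, adjusted p = 0.00542), and Cdc45, a subunit of the replicative helicase, at 7.01 to 7.47 in IkL/L CDPs and 8.37 to 8.75 in IkL/L MDPs (-1.36 ± 0.26, adjusted p = 0.0107). Ccne1, cyclin E1, and Rrm2, a ribonucleotide reductase subunit, fell by 1.06 ± 0.21 and 1.18 ± 0.25, and their calls were lost when any 1 of 3 and any 1 of 5 arrays was left out (adjusted p of up to 0.0551 and 0.069). Ribosome biogenesis genes had 0 of 21 called in either direction, with Heatr1 at -0.21 ± 0.11 and Wdr12 at -0.35 ± 0.19.

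Receptors for cytokines and migration changed in part. Il7r, the IL-7 receptor α chain, was at 7.86 and 8.19 with GSI and 7.83 and 8.03 with DMSO in IkL/L CDPs, against 4.51 and 4.83 with GSI and 4.73 and 5.05 with DMSO in IkL/L MDPs (3.20 ± 0.26, 9.16-fold, adjusted p = 6.26e-05). Together with Flt3, Il1r2, a decoy receptor for IL-1 (2.41 ± 0.45), and Il10ra, the IL-10 receptor α chain (0.91 ± 0.17), it made 4 of 17 growth factor and cytokine receptors higher. The 1 that was lower, Il3ra, the IL-3 receptor α chain (-0.48 ± 0.12, adjusted p = 0.04), was not called when any IkL/L array or either array of WT CDPs with GSI was left out. Among 17 chemokine receptors and adhesion genes 4 were higher and 1 lower. For both lists, the shares over all genes were 3.87% higher and 2.87% lower. Besides Ccr7, Itgax and Ccr6, the receptor for CCL20 (0.36 ± 0.09), Ccr9, the gut-homing receptor, was at 4.59 to 4.81 in IkL/L CDPs and 3.77 to 4.0 in IkL/L MDPs (0.84 ± 0.11) and Cxcr4, which retains cells in the BM, was lower, at 9.75 to 10.4 in IkL/L CDPs and 10.5 to 11 in IkL/L MDPs (-0.55 ± 0.11, adjusted p = 0.0135, and up to 0.0674 when 1 of 3 IkL/L arrays was left out).

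Of the 14 Toll-like receptors 2 were higher and 0 lower, Tlr1, a receptor for bacterial lipopeptides (1.79 ± 0.23), and Tlr9, which senses CpG DNA in pDCs (0.68 ± 0.10). Of 15 lysosomal protease genes 5 were higher and 0 lower, with a median of 0.29, while 6 had a lower mean in IkL/L CDPs, with differences down to -0.81. Of the 5, Lgmn, the antigen-processing protease legumain, was at 8.21 to 8.94 in IkL/L CDPs and 5.80 to 6.62 in IkL/L MDPs (2.19 ± 0.31, adjusted p = 0.00219). The others were the cathepsin genes Ctsa, Ctsh and Ctss and Cst3, the inhibitor cystatin C, with 0.48 ± 0.12, 0.63 ± 0.14, 0.81 ± 0.15 and 0.29 ± 0.06. This count was 1 without array 1 of IkL/L MDPs with GSI, Ctss, Cst3 and Ctsh being among those lost, and 2 or 3 without any 1 of the other IkL/L arrays except array 2 of MDPs with DMSO. Over all genes 3.87% were called higher and 2.87% lower. In the Notch pathway 2 of 19 were higher, Rbpj, its DNA binding factor (0.69 ± 0.12), and the ligand Jag1 (0.60 ± 0.14), and 1 was lower, the receptor Notch1, at 6.02 to 7.03 in IkL/L CDPs and 7.52 to 7.90 in IkL/L MDPs (-1.20 ± 0.30, adjusted p = 0.0399). The count higher was 1 when any IkL/L array was left out. The calls of Jag1 and Notch1 were each lost when any 1 of 8 arrays was left out, with adjusted p of up to 0.0916 and 0.152.

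Markers of cells that the sorted CD45.2+ population could also hold were measured beside these. Of 20 late neutrophil genes 4 were higher and 1, Fcnb, was lower, with a median of 0.05, against 3.87% higher and 2.87% lower over all genes. Ly6g, the neutrophil antigen, was at 7.07 and 4.75 with GSI and 7.79 and 5.84 with DMSO in IkL/L CDPs, against 3.73 and 3.81 with GSI and 4.15 and 4.51 with DMSO in IkL/L MDPs (2.31 ± 0.49, adjusted p = 0.0185). The CDP arrays numbered 1 were higher than those numbered 2. Mmp9, a gelatinase, Retnlg, a resistin-like gene, and Stfa2, a stefin, differed by 2.44 ± 0.44, 2.81 ± 0.71 and 1.4 ± 0.28, and 6 were called higher without array 2 of IkL/L CDPs with GSI, only 1 of the 4 was called higher without array 1 of IkL/L MDPs with DMSO or without array 2 of IkL/L MDPs with GSI, and 2 without array 1 of IkL/L CDPs with DMSO or array 1 of IkL/L MDPs with GSI. The mean level of the list was 8.28 to 9.67 in IkL/L CDP arrays and 8.30 to 8.75 in IkL/L MDP arrays. Camp, a granule peptide gene of the same list, was at 10.8 to 12.2 in IkL/L CDPs and 11.2 to 12.1 in IkL/L MDPs, against 7.78 to 8.10 in WT CDPs and 6.93 to 8.72 in WT MDPs. The part of neutrophil RNA in the stage differences was not tested.

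Of 26 monocyte and macrophage genes 0 were higher and 1, F13a1, was lower, with a median of 0.02. Ccr2, the receptor for CCL2, was at 11.5 to 11.7 in IkL/L CDPs and 11.5 to 11.6 in IkL/L MDPs. Single genes were higher in the B cell list (Il7r, 1 of 15), in the T and NK cell list (Klrd1, which encodes CD94, 1 of 18, 3.54 ± 0.44, adjusted p = 0.00101) and in the erythroid and megakaryocyte list (Ppbp, a platelet chemokine gene, 1 of 14, 1.60 ± 0.18, adjusted p = 0.00054), with 0 lower in each. Over all genes 3.87% were higher and 2.87% lower, so counts of 1 gene are near that share and are no result about these lists. Il7r was already counted among the cytokine receptors. Of 20 basophil, mast cell and eosinophil genes 0 were called in either direction, with up to 2 higher or 3 lower when 1 array was left out (2 higher without array 2 of IkL/L CDPs with DMSO or with GSI, 3 lower without array 2 of IkL/L MDPs with DMSO). Fcer1a, the IgE receptor α chain, differed by 0.77 ± 0.22 (adjusted p = 0.0728), and Prg2, the eosinophil major basic protein, was at 7.16 to 9.08 in IkL/L CDPs and 8.87 to 11.6 in IkL/L MDPs (-2.18 ± 0.58, adjusted p = 0.0503). Of 17 stress response genes, which follow handling and sorting as well as activation, 5 were higher and 0 lower, and 3 were higher without array 1 of IkL/L CDPs with DMSO, array 2 of IkL/L CDPs with GSI, array 2 of IkL/L MDPs with DMSO or array 1 of IkL/L MDPs with GSI. Dusp1, a phosphatase of MAP kinases, was at 8.09 to 8.40 in IkL/L CDPs and 6.20 to 6.64 in IkL/L MDPs (1.77 ± 0.12, adjusted p = 3.01e-05). Jun, Egr2, Junb and Jund, all genes of transcription factors, differed by 1.52 ± 0.15, 2.03 ± 0.23, 0.59 ± 0.14 and 0.45 ± 0.09, and their part in the other differences was not tested.

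To see whether GSI altered the step, the stage difference was taken under each treatment. With GSI, 329 genes (1.65%) were higher and 153 (0.767%) lower in IkL/L CDPs, and with DMSO 255 (1.28%) were higher and 85 (0.426%) lower. Of these, 192 were higher and 56 lower under both treatments. Without array 1 of IkL/L MDPs with GSI the counts with GSI were 99 and 12, and without array 1 of IkL/L MDPs with DMSO the counts with DMSO were 86 and 13. The difference between the treatments was called by limma for 0 genes, with 278 at an unadjusted p under 0.05 and up to 6 when 1 array was left out (array 1 of IkL/L CDPs with GSI). The 2 genes with the smallest p were Cyp1b1, a target of the aryl hydrocarbon receptor, and Pdcd1lg2, which encodes PD-L2. Pdcd1lg2 was at 5.40 and 6.06 with GSI and 4.06 and 3.85 with DMSO in IkL/L CDPs, against 3.69 and 3.93 with GSI and 3.50 and 3.84 with DMSO in IkL/L MDPs. Cyp1b1 was at 4.81 and 4.56 with GSI and 3.61 and 3.55 with DMSO in IkL/L CDPs, against 3.88 and 3.68 with GSI and 3.45 and 3.46 with DMSO in IkL/L MDPs. For both, only the CDP arrays with GSI stood clearly above the rest, and the difference between treatments did not pass the threshold.

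**Figure D3:**
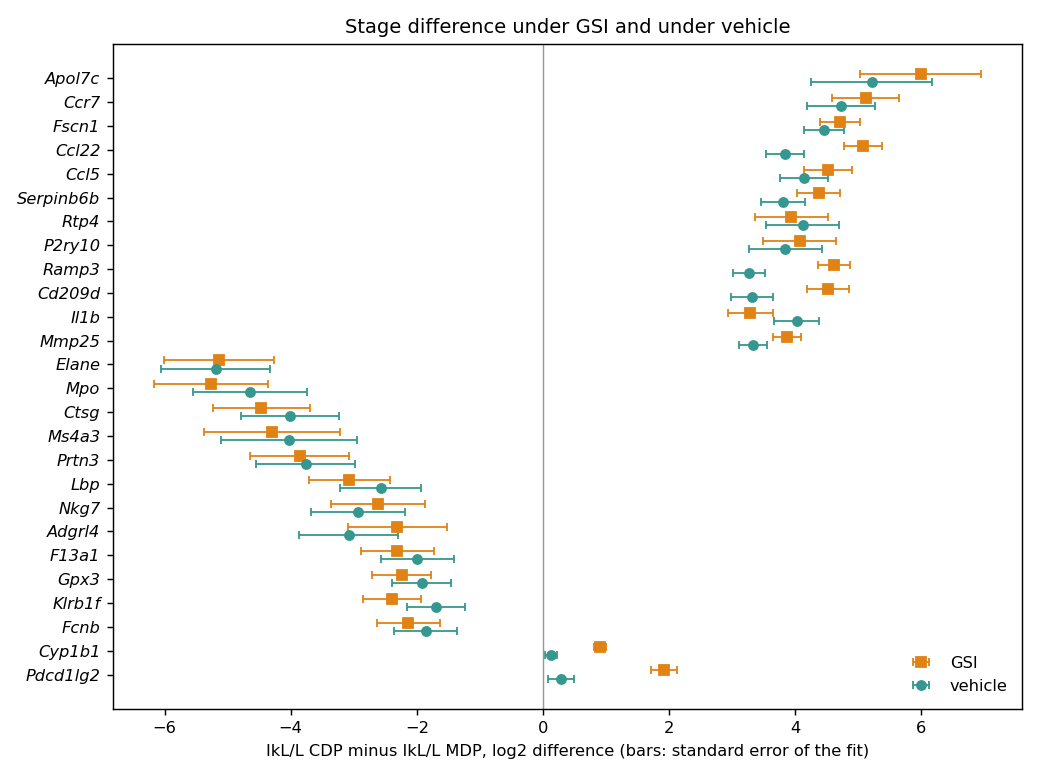
Log2 stage difference in IkL/L cells (CDP minus MDP, horizontal axis) with GSI and with vehicle, with bars of 1 SE of the fit, for the 12 largest rises, the 12 largest falls, Cyp1b1 and Pdcd1lg2. The stage difference of Ccl22 was 5.07 ± 0.30 with GSI and 3.84 ± 0.30 with vehicle, and that of Elane was -5.14 ± 0.87 with GSI and -5.19 ± 0.87 with vehicle.

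The same step in WT cells had fewer called genes, 135 higher (0.677%) and 31 lower (0.155%) in WT CDPs than in WT MDPs. Of the genes called in IkL/L cells, 115 were also higher and 18 also lower in WT cells, and 0 were called in the opposite direction. A call in one genotype alone does not show that the genotypes differ, so the difference between the stage differences was tested itself. It was more positive in IkL/L cells for 80 genes (0.401%) and more negative for 32 (0.16%). The WT counts were 61 and 6 without array 2 of WT MDPs with DMSO and 227 and 89 without array 1 of WT CDPs with GSI, and the count of more negative genes was 10 without array 1 of IkL/L MDPs with GSI and 68 without array 2 of WT MDPs with GSI. Array 2 of WT CDPs with DMSO stood apart from the other WT CDP arrays by its azurophil granule genes, with Mpo at 11.7 there and at 7.28 to 8.17 in the other 3.

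Among the lists, which were written with earlier results of these data known, mature DC genes had the most members in which the genotypes differed. The stage difference was more positive in IkL/L cells for 16 of 31 and more negative for 0, and 12 were called without array 2 of IkL/L MDPs with GSI. The median in WT cells was 0.40, with 3 of 31 called higher there, or 0 to 6 when 1 array was left out. Fscn1 was at 4.76 to 5.80 in WT CDPs and 4.49 to 4.82 in WT MDPs, a difference of 0.54, and the IkL/L difference exceeded it by 4.05 ± 0.32 (adjusted p = 0.000396). Ccr7 was at 5.53 to 7.38 in WT CDPs and 5.14 to 5.43 in WT MDPs, and the IkL/L difference was larger by 3.77 ± 0.54 (adjusted p = 0.0113). For both genes the IkL/L CDP arrays were above all other arrays of the series. Ramp3, Serpinb6b and Mmp25 had IkL/L differences larger by 3.72 ± 0.25, 3.81 ± 0.34 and 3.50 ± 0.22 and WT differences of 0.22, 0.28 and 0.11.

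NF-κB pathway genes were more positive in IkL/L cells for 3 of 16, Traf1 (2.54 ± 0.24, adjusted p = 0.00092), Relb (1.17 ± 0.21, adjusted p = 0.0459) and Map3k14 (0.95 ± 0.17, adjusted p = 0.0479). Traf1 and Relb were already counted among the mature DC genes. Traf1 was the only one of the 3 whose call held whichever array was left out. Relb, the only TGFβ target of the 7 so called, was lost when any 1 of 13 arrays was left out (adjusted p of up to 0.148), and Map3k14 with any 1 of 12 (adjusted p of up to 0.152). Clec4a4, among the cDC2 genes, exceeded the WT difference by 1.67 ± 0.30 (adjusted p = 0.0409, and up to 0.12 when 1 of 13 arrays was left out). For interferon response genes the median was 0.58 in WT cells with 3 of 18 called higher (0 to 3 when 1 array was left out), and 0 of 18 were called as different between genotypes, although 4 were more positive in IkL/L cells without array 2 of IkL/L CDPs with GSI.

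In the MHC class II list 4 of 9 genes had a more negative stage difference in IkL/L cells and 0 a more positive one, and the median over the list was -0.01. H2-Ab1 was at 11.3 to 11.8 in WT CDPs and 5.55 to 6.90 in WT MDPs, a difference of 4.91 against 1.69 in IkL/L cells, so that the stage difference was more negative in IkL/L cells by 3.22 ± 0.37 (adjusted p = 0.00323). The gap came with levels in MDPs of 10.2 to 10.9 in IkL/L cells against 5.55 to 6.90 in WT cells. H2-Aa, Cd74 and H2-Eb1 had the same pattern, with -3.32 ± 0.46, -2.55 ± 0.43 and -2.26 ± 0.42 (adjusted p = 0.00972, 0.0289 and 0.0484). These 4 were the only genes called higher at the CDP stage of IkL/L cells with a called difference in this direction. When 1 of the 16 arrays was left out, 2 of the 4 were called in 12 cases, and H2-Aa and H2-Ab1 were called in all. H2-Eb2 had a difference of 1.31 ± 0.30 in the positive direction (adjusted p = 0.129), which was called without array 1 of IkL/L CDPs with GSI (adjusted p = 0.014). Ciita rose in both genotypes, by 2.27 in IkL/L cells and 2.03 in WT cells, and their difference of 0.24 ± 0.33 was not called.

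Mitosis genes had a median of -0.99 in IkL/L cells and 0.18 in WT cells, where 0 of 25 were called in either direction. The stage difference was more negative in IkL/L cells for 9 of 25, but this count was 3 without array 2 of IkL/L MDPs with GSI and 6 with Eif2s3y as a covariate, and 3 to 5 when any 1 of 12 arrays was left out. Bub1b was at 8.38 to 8.82 in WT CDPs and 8.65 to 8.98 in WT MDPs, and the IkL/L difference was more negative by 1.04 ± 0.14 (adjusted p = 0.00876), a call that held whichever array was left out. Ccnb2, Cdkn3 and Kif20a were more negative by 1.21 ± 0.19, 1.26 ± 0.21 and 1.06 ± 0.18, calls lost when any 1 of 3, 11 and 12 arrays was left out. The WT CDP arrays had list means of 8.10 to 8.78, close to the 8.01 to 8.56 of IkL/L MDPs and the 8.07 to 8.73 of WT MDPs, and the IkL/L CDP arrays at 7.03 to 7.52 were below all of them. Depdc1a, a gene of dividing cells outside this list, had the most negative difference after the MHC class II genes (-1.76 ± 0.30, adjusted p = 0.0289, and up to 0.102 when 1 of 12 arrays was left out).

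**Figure D4:**
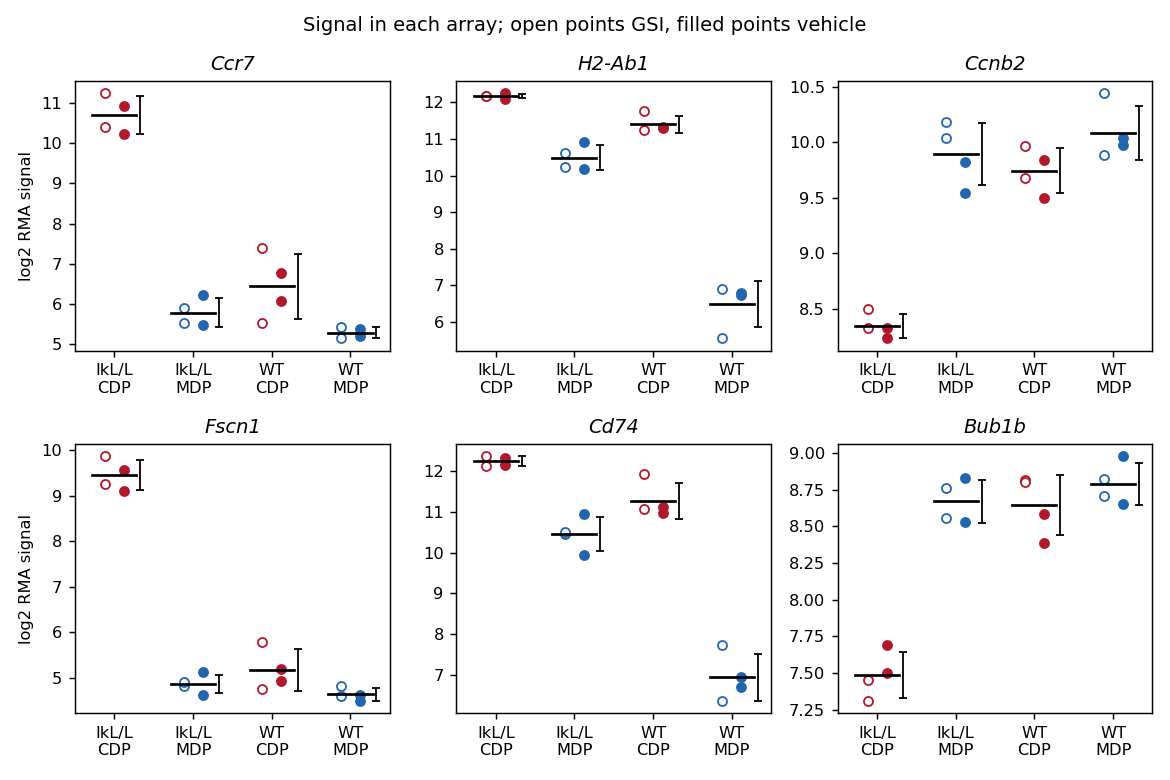
Log2 RMA signal (vertical axis) of Ccr7, Fscn1, H2-Ab1, Cd74, Ccnb2 and Bub1b in IkL/L CDPs, IkL/L MDPs, WT CDPs and WT MDPs, 1 point per array with GSI open and vehicle filled, a line at the mean and a bar of 1 SD (n = 4). H2-Ab1 is low in WT MDPs alone (5.55 to 6.90), Fscn1 is high in IkL/L CDPs alone (9.11 to 9.88), and Ccnb2 is lowest in IkL/L CDPs (8.23 to 8.50).

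Azurophil granule genes fell in both genotypes. Their median was -3.81 in IkL/L cells and -2.57 in WT cells, where 3 of 9 were lower, with 6 lower without array 2 of WT CDPs with DMSO, and 0 or 1 without any IkL/L array, any WT MDP array or array 2 of WT CDPs with GSI. In WT cells Elane was at 6.38 and 5.20 with GSI and 6.14 and 9.60 with DMSO in WT CDPs, against 10.4 to 10.8 in WT MDPs. For 0 of 9 genes was the difference between genotypes called. Without array 1 of WT CDPs with DMSO, only array 2, which stood apart by these genes, is left in that group. Calls in that setting rest on array 2 and cannot be read as a difference between genotypes. The DC genes Siglech, Cd209a, Itgax, Flt3 and Cadm1 rose in both genotypes, by 2.41, 3.99, 3.06, 1.92 and 1.27 in WT cells. Klrd1, of the T and NK cell list, rose in both as well, by 4.72 in WT cells. None of these genes had a called difference between genotypes.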

How the data were processed

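Affymetrix Mouse Gene ST arrays of 16 samples, 2 in each of 8 groups of genotype, stage and treatment, were grouped by their labels. The deposited values are log2 signals that the authors obtained by RMA (background correction, quantile normalization and summary over probes) with Affymetrix Expression Console 1.4.1, per the submitters' processing notes. For the probe annotation, a genome build was not given in the sources used here. Of 28188 probe sets, 21789 carried 1 gene symbol, 1621 several and 4778 none. Genes were the 19938 symbols of the first kind, with the probe set of the highest mean for each, and no filter on signal was set. The number of arrays limits the precision.

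A model with 1 mean for each of the 8 groups was fitted over the 16 arrays with limma 3.58.1 and statmod 1.5.0 in R 4.3.3 (8 residual and 2.35 prior degrees of freedom). Its two-sided moderated p values were adjusted over the 19938 genes (Benjamini-Hochberg) and called under 0.05. Errors written with ± are SE of this fit. Fit functions were tested on simulated data. Alternatives were a fit per genotype, the replicate number as a block, a filter on low signal, other choices of probe sets, other normalizations, variance models and array weights, a test against a 1.5-fold difference, fold change alone, leaving out each array and, chosen after seeing the data, Eif2s3y as a covariate.

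The members and the 30 gene lists (489 genes, 449 measured) were chosen with earlier results of these data known. Named were the 12 largest rises and 12 largest falls among called genes whose stages did not overlap, the 5 and 5 with the largest called genotype dependence, up to 4 called members of each list by p (otherwise 2), the gate receptors, Ikzf1, Cd34, the 7 TGFβ targets, Eng and the 2 genes with the smallest p for treatment. Ccr6, Ctsa, Il3ra, Junb, Retnlg, H2-Oa, Cd83, Cd80, Cd86, Il12b, Ccl17, H2-DMa, Ifit1, Ifit3, Stat2, Ptcra, Xcr1, Clec9a, Irf8, Id2, Cdc20, Mki67, Camp, Msr1, Ccr2 and Xist were named after their values were seen. Promoter sequences are from RefSeq (GRCm38.p6) and were searched with Python 3.11.15.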

Additional observations from a re-analysis of the deposited data

Results flagged for a closer look

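The stage difference in IkL/L cells and that in WT cells differed, by limma's test of the difference itself with adjustment over all genes, in the positive direction for 80 genes and in the negative direction for 32. Values are the log2 stage difference in IkL/L cells minus that in WT cells.

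Among the named genes it was positive for Fscn1 (4.05), Serpinb6b (3.81), Ccr7 (3.77), Ramp3 (3.72), Mmp25 (3.5), Ccl22 (2.98), Ccl5 (2.94) and Traf1 (2.54), all genes of mature DCs or with the largest rises. It was smaller for Ppbp (1.79), Clec4a4 (1.67), Relb (1.17) and Map3k14 (0.95), and the calls of Clec4a4, Relb and Map3k14 were lost when single arrays were left out.

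It was negative for the MHC class II genes H2-Aa (-3.32), H2-Ab1 (-3.22), Cd74 (-2.55) and H2-Eb1 (-2.26), whose levels in MDPs were higher in IkL/L than in WT cells. It was also negative for the cell cycle genes Depdc1a (-1.76), Cdkn3 (-1.26), Ccnb2 (-1.21), Kif20a (-1.06) and Bub1b (-1.04). The calls of Cd74 and Depdc1a (12 arrays each), H2-Eb1 (13), Cdkn3 (11), Kif20a (12) and Ccnb2 (3) were lost when any 1 of that many arrays was left out. With 2 arrays a group, single outlying arrays within a group were not tested.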

How the results depend on the processing

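No gene called in IkL/L cells was called in the opposite direction in any setting other than that of all probe sets, where this was not counted. For the stage difference of the named genes, 2731 values kept their direction and side of the threshold, 168 lost and 25 gained a call, and 5 of genes that were not called (Kit, Kdm5d and Eng) changed sign. Of 334 counts of genes 237 stayed within 1.5 times and 97 did not.

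When 1 array was left out, the IkL/L stage counts ranged over 468 to 803 higher and 242 to 666 lower, those with GSI over 99 to 346 and 12 to 161, those with DMSO over 86 to 287 and 8 to 125, those for treatment over 0 to 6 and 0 to 0, those in WT cells over 61 to 227 and 6 to 89, and those for genotype over 55 to 100 and 10 to 68.

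Against a 1.5-fold difference, 147 genes were higher and 25 lower (GSI 89 and 9, DMSO 59 and 0, WT 23 and 0, genotype 32 and 2). By fold change alone they were 788 and 652 with GSI, 760 and 613 with DMSO, 147 and 124 for treatment, 392 and 207 in WT cells and 362 and 337 for genotype. In a fit of 1 genotype, 1127 were lower in IkL/L CDPs, 389 lower with GSI, 393 higher and 317 lower with DMSO, and 18 higher and 1 lower in WT cells. With array weights 1075 were lower, 605 higher and 466 lower with GSI, 179 lower with DMSO, and 73 higher and 8 lower in WT cells. With the Eif2s3y covariate 100 were lower with GSI and 156 with DMSO, and with the filter on low signal 49 were lower in WT cells. The cause was not tested.

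Whether arrays of the same number share a mouse is not in the labels, and the numbers were not taken to pair the arrays. Deviations of same-numbered arrays correlated at -0.25 to 0.66, with 17 of 28 pairs of groups over 0.1, among them all 6 pairs of WT groups (0.14 to 0.585) and 3 of 6 pairs of IkL/L groups. The highest value was that of IkL/L CDPs with DMSO and with GSI. With the replicate block 871 genes were lower, 286 lower with GSI, 215 lower with DMSO, 229 higher and 80 lower in WT cells and 63 more negative by genotype.

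Signal relative to background was not analysed here, and the number of arrays, 2 a group, limits the precision.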
